A study of Mus musculus with 9 samples.

Results

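Collagen-high fibroblasts of the mouse epididymis were the cells of this account, that is, cell barcodes whose messenger RNA was rich in the transcripts of fibrillar collagen. They were selected from a single-cell RNA-seq table of unique molecular identifiers (UMIs, each standing for 1 captured RNA molecule) for 32195 genes in 44869 barcodes. A barcode was kept if the number of genes detected in it lay between 300 and 4000, if it held at most 20000 UMIs and if mitochondrial genes gave under 50% of them. A kept barcode was called a member if Col1a1, Col1a2 and Col3a1 together gave 3% or more of its UMIs, if at least 3 of the 6 stromal genes Lum, Mfap5, Gas1, Col6a1, Col6a2 and Igf1 were detected in it, and if fewer than 3 of the 5 smooth muscle genes Acta2, Myh11, Tagln, Cnn1 and Des were. Of the 42087 kept barcodes, 1595 (3.79%) were members.

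The tissue came from untreated wild-type C57BL/6 male mice (C57BL/6J in the study's methods) at postnatal day 42 (P42) and postnatal day 56 (P56). The epididymis was divided into its proximal part, the caput, its middle part, the corpus, and its distal part, the cauda, where sperm are stored. Each of the 9 libraries held 1 segment pooled from 5 mice. There was 1 pool at P42 and there were 2 at P56, called P56 pool 1 and P56 pool 2 here after their replicate numbers, and each pool gave all 3 segments. The P42 libraries have no replicate at their age, so age and pool cannot be told apart, and no individual mouse can be followed. Library totals ran from 23114756 UMIs (P42 cauda) to 50655384 UMIs (P42 caput).

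Fibroblasts are the connective tissue cells that build the extracellular matrix around the epididymal tubule. They secrete procollagen chains, which fold into triple helices in the endoplasmic reticulum, are trimmed outside the cell and are joined by lysyl oxidases into fibrils. Small proteoglycans on the fibril surface limit how thick the fibrils grow, and microfibrils and elastin give the tissue recoil. In the epididymis, mesenchymal signals also help set the identity of the overlying epithelium along the duct.

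Nearly all members came from the P42 pool. It gave 1575 of them (98.7%), and the P42 cauda alone gave 83.5%. In the P42 caput 32 of 4209 kept barcodes were members (0.760%, 95% exact binomial interval 0.521 to 1.07%). In the P42 corpus 211 of 4562 were (4.63%, 4.03 to 5.28%). In the P42 cauda 1332 of 4590 were (29.0%, 27.7 to 30.4%). Within the P42 pool the share was thus lowest in the caput and highest in the cauda, with intervals that did not overlap. The intervals cover counting error only.

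In the P56 libraries members were rare. P56 pool 1 gave 2 caput members (0.0411%, 0.00498 to 0.148%), 5 in the corpus (0.106%, 0.0344 to 0.247%) and 10 in the cauda (0.206%, 0.0988 to 0.378%). P56 pool 2 gave 1 in the caput (0.0204%, 0.000516 to 0.113%), 2 in the corpus (0.0445%, 0.00539 to 0.161%) and 0 of 4874 in the cauda, which allows a share of up to 0.0616% (3 counts). Each P56 share lay below the P42 share of the same segment. The order caput, corpus, cauda of P56 pool 1 matched that of P42, and P56 pool 2 had no member in the cauda. Over the 9 libraries the mean share in the cauda exceeded that in the caput by 9.47 percentage points. An exact two-sided permutation test of the segment labels within pools gave p = 0.25, where 0.0278 is the smallest p the design allows. Its statistic was the sum of squares of the segment means, so it covers all segments and not this difference alone. Without the P42 pool the difference between cauda and caput was 0.0722 points. The ages were not tested, since P42 had 1 pool.

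**Figure D1:**
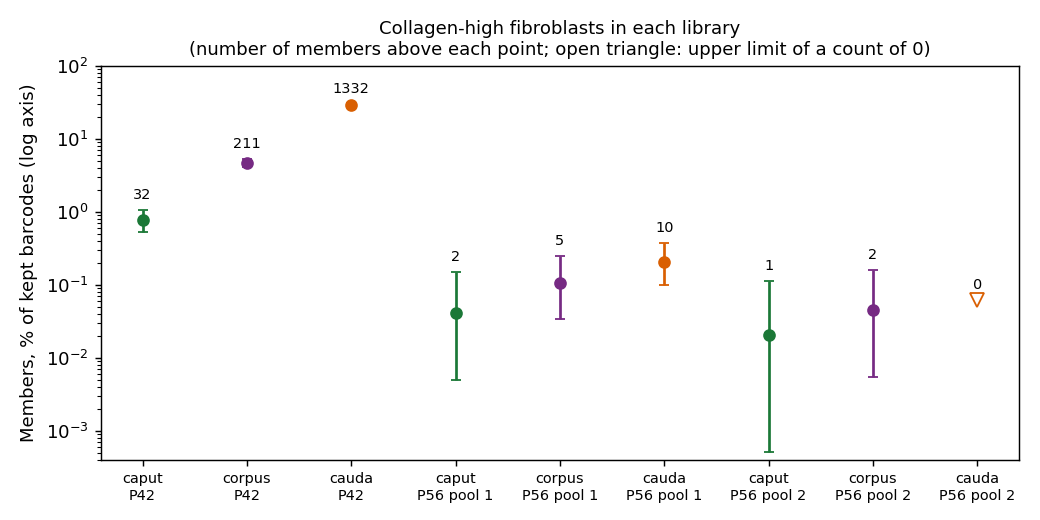
Share of kept barcodes that were members in each of the 9 libraries, on a log axis in percent. Points are the shares, bars their 95% exact binomial intervals, the numbers above are the members, and the open triangle is the upper limit for a count of 0. The P42 libraries reach 0.760%, 4.63% and 29.0%, and each P56 library lies at or below 0.206%.

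The P42 cauda stood apart from the other libraries in its collagen content. The median kept barcode there carried 1.76% of its UMIs in the 3 collagen genes, and 68.8% of kept barcodes carried 1% or more. Barcodes with the markers of other cell types also held collagen UMIs in this library, with a median of 1.37% in macrophage barcodes, 1.36% in sperm barcodes, 0.917% in T or halo barcodes, 0.521% in basal barcodes and 0.459% in clear or narrow barcodes. In the P42 caput and corpus the same classes, sperm in the corpus alone, lay between 0.0207% and 0.126%. These classes were called on their markers alone, so their medians include members. In the P42 cauda 351 of 1540 macrophage, 1 of 14 sperm, 14 of 76 T or halo, 3 of 76 basal and 17 of 148 clear or narrow barcodes were members. Members held 77.5% of the collagen UMIs of kept barcodes in the P42 cauda, 54.6% in the P42 corpus and 32.2% in the P42 caput. RNA outside intact cells gives UMIs to every barcode of a library, and its part in the number of members in the P42 cauda was not tested.

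Fibroblast markers that had no role in the selection were high in the members. The summed level of 12 such genes (Dcn, Pdgfra, Dpt, Serpinf1, Clec3b, Fbln1, Pcolce, Mmp2, Gsn, Cygb, Fstl1 and Loxl1), scaled to 1000000 UMIs (CPM) over all members of a library, was 24632 in the P42 caput, 24865 in the P42 corpus, 31143 in the P42 cauda and 23486 in the cauda of P56 pool 1. The other kept barcodes of these libraries had 1510, 3146, 8523 and 1068 CPM, so that members were 16.3, 7.90, 3.65 and 21.99 times higher. These are the only 4 libraries with 10 or more members, and levels are given for them alone. The ratio was smallest in the P42 cauda, where the other barcodes had the highest level.

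Markers of most other cell types were lower in members than in the other barcodes. The 6 macrophage genes summed to 214, 446 and 1303 CPM in members of the P42 caput, corpus and cauda, against 335, 978 and 3747 CPM in the other barcodes, and all 6 were at 0 in the 10 members of P56 pool 1. In the P42 cauda 351 of 1332 members had at least 3 of the 6 macrophage genes. The 5 red blood cell genes summed to 16426, 14309, 6284 and 127 CPM in members of the 4 libraries, against 15744, 42968, 20421 and 349 CPM elsewhere. The 5 endothelial genes went the other way in the cauda, at 58.3 against 39.2 CPM at P42 and 42.4 against 14.3 CPM in P56 pool 1, and the 5 smooth muscle genes did so in the cauda of P56 pool 1, at 233 against 150 CPM. The 4 adipocyte genes summed to at most 0.56 CPM, and the 4 Schwann cell genes to at most 9.74 CPM. Counting every class other than smooth muscle, principal and red blood cells, 882 members had at least 2 markers of another class. Doublets were not removed. Without these mixed barcodes members made up 0.380%, 2.85% and 12.03% of the kept barcodes in the P42 caput, corpus and cauda, and other results without them are given below where they differ. Principal and red blood cell genes played no part in calling a barcode mixed. At least 2 of 7 principal cell genes were found in 28, 200 and 192 members of the P42 caput, corpus and cauda. At least 2 of the 5 red blood cell genes were found in 32, 207 and 1263.

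The 3% limit cut through a range of collagen content in the P42 cauda. The members' median collagen share was 5.27% in the P42 caput, 4.71% in the P42 corpus, 5.53% in the P42 cauda and 5.16% in the cauda of P56 pool 1, and the highest single barcode reached 21.7%. In the P42 cauda 172 members lay between 3% and 3.5%, and 212 barcodes that met the other limits lay just below, between 2.5% and 3%. Dcn, which encodes decorin, was at 15117 CPM just inside and 12643 CPM just outside, and Sparc, a collagen-binding glycoprotein, at 19756 and 16525 CPM. In the upper end of the members there, 147 barcodes with 10.1% or more, Sparc stood at 43202 CPM and Dcn at 21701 CPM. The macrophage gene C1qb was at 62.3 CPM in that upper end and at 502 CPM just inside the limit. These values describe the limit and are no test of it.

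The genes used in the selection were high by construction. Col1a1, the alpha 1 chain of type I collagen, was at 16948, 16742, 19960 and 13557 CPM in members of the P42 caput, P42 corpus, P42 cauda and cauda of P56 pool 1. Col1a2, its partner chain, was at 30700, 24474, 28017 and 25671 CPM. Col3a1, which forms the finer type III fibrils, was at 13724, 13264, 16346 and 12899 CPM. Among the 6 stromal genes, Igf1, a growth factor that fibroblasts release to their neighbours, stood at 2138, 3252, 3060 and 1825 CPM, and Lum, the proteoglycan lumican, at 1666, 698, 1016 and 361 CPM. Of the members, 1006 had all 6 stromal genes, 88 had exactly 3, and 991 had no smooth muscle gene.

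Since these collagen genes define the cells, the promoters of Col1a2 and Col3a1 are shown from RefSeq on the GRCm38.p6 build, each as the 250 bases before the annotated start, 5′ to 3′ on the plus strand. Capitals mark matches on either strand, with overlaps allowed, to any of 3 core promoter motifs. The first was CCAAT, which is bound by the nuclear factor Y complex. The second was TATAAA, which positions the polymerase at many regulated genes. The third was GGGCGG, which is bound by factors of the Sp1 family.
Col1a2, chr6:4505368-4505617: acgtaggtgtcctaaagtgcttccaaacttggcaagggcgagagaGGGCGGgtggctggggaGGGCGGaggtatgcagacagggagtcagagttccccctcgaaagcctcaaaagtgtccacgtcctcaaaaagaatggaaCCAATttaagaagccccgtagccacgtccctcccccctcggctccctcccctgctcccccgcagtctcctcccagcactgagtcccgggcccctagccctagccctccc
Col3a1, chr1:45311288-45311537: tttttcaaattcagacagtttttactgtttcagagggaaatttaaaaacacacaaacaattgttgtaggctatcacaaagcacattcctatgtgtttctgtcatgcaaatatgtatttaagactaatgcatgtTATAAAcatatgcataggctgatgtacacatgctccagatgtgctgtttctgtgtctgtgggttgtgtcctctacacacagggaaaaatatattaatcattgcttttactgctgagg
The Col1a2 window was 62.0% G and C and held GGGCGG 205 and 188 bases and CCAAT 109 bases before the start. The Col3a1 window was 35.2% G and C and held TATAAA 117 bases before the start. Of 32851 such windows over all genes, 33.8% held CCAAT, 12.4% TATAAA and 32.7% GGGCGG, and the median content of G and C was 52.4%. A match describes the letters and is no evidence that a factor binds there.

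Beyond the rule, the members carried the wider machinery of collagen fibrils. Over all 9642 genes at 10 CPM or more in the members of at least 1 of the 4 libraries, 401 (4.16%) were more than 2-fold higher in members than in the other barcodes in all 4 libraries, and 204 (2.12%) were lower by more than 2-fold in all 4. These counts describe cells chosen on the same transcripts and are no test. Of 8 fibrillar collagen genes 7 passed this fold, including the 3 rule genes. Col5a2, a type V chain that starts fibril assembly, was at 730, 630, 755 and 446 CPM in members of the P42 caput, P42 corpus, P42 cauda and cauda of P56 pool 1, against 16.4, 37.9, 166 and 9.39 CPM in the other barcodes. Of 19 other collagen genes 13 passed, including the rule genes Col6a1 and Col6a2. Among the rest was Col14a1, a fibril-associated collagen, at 696, 459, 644 and 361 CPM against 34.5, 41.1, 138 and 11.5 CPM.

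The enzymes and chaperones that finish collagen followed the chains. Of 22 genes for collagen folding, trimming and cross-linking, 13 were over 2-fold higher in all 4 libraries. Serpinh1, the collagen chaperone of the endoplasmic reticulum, was at 1247, 1247, 1174 and 594 CPM in the members in the same order, against 103, 132, 328 and 37.6 CPM. Lox, a lysyl oxidase that cross-links collagen and elastin, was at 560, 565, 604 and 467 CPM, against 18.7, 41.6, 128 and 9.20 CPM. Pcolce, which speeds the removal of the procollagen tail, was at 1188, 958, 982 and 361 CPM, against 41.7, 88.7, 232 and 16.0 CPM. The prolyl hydroxylase gene P4ha2 did not pass: the other barcodes of the P42 caput had 312 CPM and the members 282 CPM.

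Fibril-coating and elastic matrix genes were shared in the same way. Of 11 small leucine-rich proteoglycan genes 10 passed the fold, 1 of them, Lum, being a rule gene. Dcn was at 13889, 14899, 18431 and 18373 CPM in members against 686, 1553, 4717 and 773 CPM, and Ogn, osteoglycin, at 2761, 2248, 2120 and 2313 CPM against 183, 220, 507 and 83.003 CPM. The levels of Ogn in members thus lay close together across the 4 libraries. Of 16 elastic fibre and microfibril genes 13 passed, 1 of them, Mfap5, being a rule gene. They were led by Mfap2, a microfibril protein, at 687, 906, 1007 and 424 CPM against 38.0, 59.1, 235 and 10.5 CPM. Of 20 basement membrane and adhesion glycoprotein genes 12 passed, with Sparc at 31022, 28155, 29028 and 25947 CPM against 2090, 2526, 6968 and 883 CPM. Of 18 genes of matrix-degrading enzymes and their inhibitors 13 passed, among them Serpinf1, the secreted serpin PEDF, at 1291, 1100, 1135 and 743 CPM against 45.4, 84.2, 294 and 23.2 CPM.

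The 20 genes with the steadiest excess in members, among 3381 genes at 20 CPM or more in members of every library and with the rule genes left out, were Svep1, Postn, Fmo2, Lox, Col14a1, Loxl2, P3h3, Cpz, Col5a1, Col5a2, Cygb, Dclk1, Angpt4, Slit3, Col6a3, Adam23, Zfpm2, Cpxm1, Creb3l1 and Mfap2. They were ranked by the lowest of the 4 log2 ratios of members to other barcodes. Svep1, a large secreted adhesion protein, led with a lowest log2 ratio of 2.37 and with 127, 137, 97.0 and 63.6 CPM in members against 4.43, 6.86, 18.0 and 2.18 CPM. Postn, the matricellular protein periostin, stood at 268, 312, 346 and 63.6 CPM against 15.0, 29.6, 68.9 and 3.35 CPM. The values of P56 pool 1 are thin: its members held 47134 UMIs in all, so that 1 UMI passes 20 CPM, and they gave 3 UMIs each of Svep1, Postn, Angpt4 and Creb3l1, 2 each of P3h3 and Cpz and 1 of Zfpm2. Several others act on collagen itself: Loxl2 cross-links it, P3h3 hydroxylates its prolines, and Creb3l1 is a transcription factor of the secretory pathway that drives collagen genes.

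**Figure D2:**
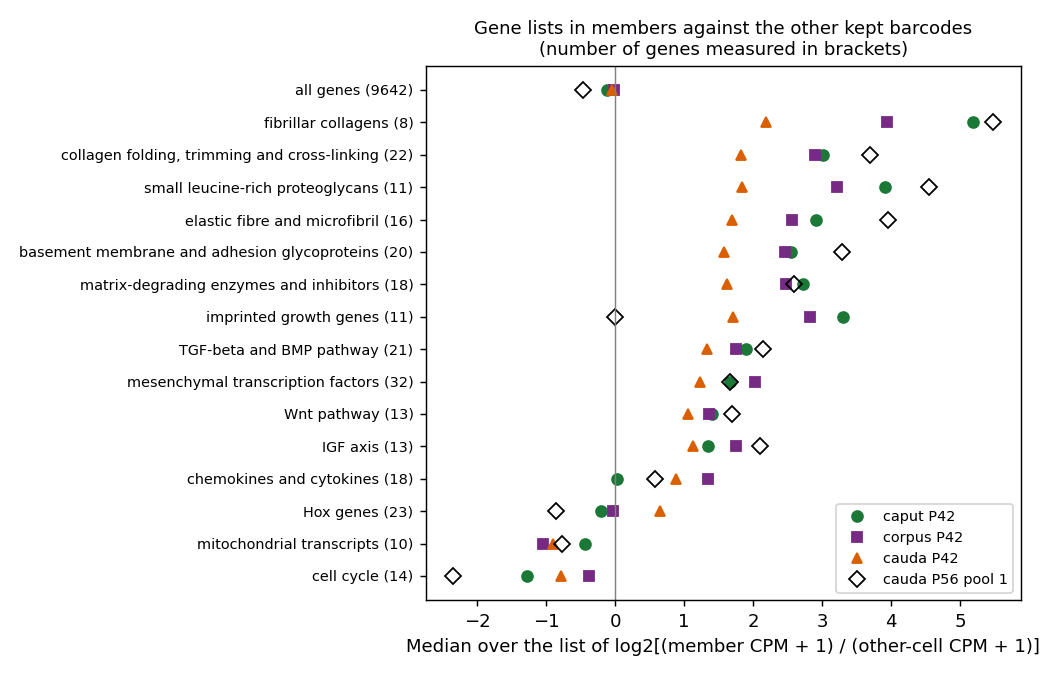
Median over each gene list of the log2 ratio of the CPM in members to the CPM in the other kept barcodes, with 1 CPM added to both, for the 4 libraries with 10 or more members. Fibrillar collagens, which include the rule genes Col1a1, Col1a2 and Col3a1, lie farthest to the right in every library. The P42 cauda (triangles) has the smallest ratios in the matrix lists, some of which hold other rule genes. The medians for all 9642 genes lie between -0.46 and -0.02.

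Signalling genes were split. Passing needed the fold in all 4 libraries, so a gene of low level could fail for want of UMIs in the 10 members of P56 pool 1. The median log2 ratio of the growth factor and receptor list was 1.88, 2.12, 1.47 and -0.11 in the 4 libraries. That of the insulin-like growth factor list was 1.34, 1.75, 1.13 and 2.11. Of 13 insulin-like growth factor genes 6 passed the fold, among them Igf1 of the rule and Igfbp6, a binding protein that favours IGF2, at 881, 686, 1127 and 891 CPM in members against 60.8, 130, 362 and 42.3 CPM. Of 13 Wnt pathway genes 5 passed: the secreted inhibitor Sfrp1, the receptor Fzd2, the enhancers Rspo1 and Rspo3 and the ligand Wnt5a. Of 21 TGF-beta and BMP genes 9 passed, among them the antagonists Fst (follistatin) and Chrdl1 and the ligand Gdf10. Of 21 growth factor and receptor genes 7 passed, with Pdgfra, the receptor that marks most fibroblasts, at 166, 167, 256 and 255 CPM against 48.8, 22.2, 66.5 and 5.62 CPM. Of 14 complement and interferon genes 5 passed, and Serping1, the inhibitor of C1, was at 2557, 2569, 2563 and 1782 CPM against 184, 395, 757 and 123 CPM. Of 18 chemokine and cytokine genes 3 passed (Il33, Csf1 and Ackr3), and of 15 hormone and retinoid genes 1 did, the retinal dehydrogenase gene Aldh1a3.

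Transcription factors of mesenchyme passed in 13 of 32 cases, including Tcf21, a factor of urogenital stroma, at 102, 170, 198 and 149 CPM against 18.3, 30.8, 60.7 and 6.65 CPM. Imprinted growth genes passed in 5 of 11 cases (Cdkn1c, Ndn, Meg3, Rian and Grb10), with the cell cycle inhibitor Cdkn1c at 633, 423, 628 and 382 CPM against 36.6, 52.9, 154 and 21.1 CPM. The median log2 ratio of the imprinted list was 3.31, 2.82, 1.71 and 0.0 in the 4 libraries, the last being P56 pool 1. No cell cycle gene of 14 passed, and their median log2 ratio was -1.28, -0.38, -0.79 and -2.35 in the same order. Of 23 Hox genes, the transcription factors that set position along the body, none passed and 3 were lower by more than 2-fold in all 4 libraries. No mitochondrial transcript of 10 passed either: the median mitochondrial share of a member was 5.70%, 8.64%, 6.38% and 18.4% in the 4 libraries, against 6.38%, 14.3%, 13.3% and 17.2% in the other barcodes. Of 27 immediate early and dissociation-response genes 2 passed, Klf4 and Cebpd.

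Across tissues, fibroblasts near vessels often carry Pi16 and those among the parenchyma Col15a1, and transcripts of both genes were detected in members. Of 13 genes of the Pi16 type 4 passed the fold, and of 14 of the Col15a1 type 12 did. The median log2 ratio of the Pi16 type was 0.07, 1.01, 1.21 and 1.84 in the 4 libraries. That of the Col15a1 type was 2.39, 2.55, 1.68 and 3.84. After each barcode had been thinned to 1000 UMIs, Pi16 was detected in 12.5%, 9.95% and 24.5% of members of the P42 caput, corpus and cauda (unthinned 40.6%, 29.4% and 54.1%). Col15a1 was detected in 25.0%, 16.1% and 35.7% of thinned members (unthinned 84.4%, 53.1% and 74.9%). In clear or narrow cells, epithelial cells that should lack both, thinned shares were 0.233%, 0.800% and 3.17% for Pi16 and 0.465%, 1.44% and 6.35% for Col15a1. Dpp4, read in the same way, was in fewer thinned members than clear or narrow barcodes in the corpus (0.948% against 7.84%) and cauda (1.23% against 6.35%). In the caput it was in more (6.25%, from 2 members, against 2.56%). The median depth before thinning was 6324, 4389 and 4845.5 UMIs in members and 6798, 4459 and 6144 UMIs in clear or narrow barcodes, and 35 members of the P42 cauda were too shallow to be thinned. Both genes appeared in the same thinned member in 7.86% of cases in the P42 cauda, where the product of the separate shares is 8.75%. In the P42 corpus the values were 0.474% and 1.60%, from 1 member, and in the P42 caput 6.25% and 3.125%, from 2 members.

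Members of the 3 segments differed in their transcripts at P42. Since each segment was 1 library, this comparison has no replicate check and no p-value, and genes were named by size alone: 100 CPM or more in the highest segment, exact Poisson intervals (95%, counting error only) apart between the highest and the lowest segment, at least 2-fold over the upper limit of the lowest, and a level above the other barcodes of that segment. Of 1831 genes at that level, 67 (3.66%) peaked in caput members, 11 (0.601%) in corpus members and 49 (2.68%) in cauda members. The caput values rest on 32 members.

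Examples of the caput-high genes follow, picked after their values were seen. Smoc2, a matricellular protein that modulates growth factors, was at 1222 CPM in caput members (1076 to 1383), 406 CPM in corpus members (368 to 447) and 118 CPM in cauda members (110 to 126), and it was detected in 90.6%, 59.7% and 31.4% of them. After thinning each barcode to 1000 UMIs these shares were 59.4%, 23.2% and 9.02%, against 0.698%, 1.60% and 0% in clear or narrow barcodes, epithelial cells that should lack it (0 of 63 in the cauda, which allows a share of up to 4.76%). Cilp, a matrix protein known from cartilage, was at 711, 97.4 and 88.6 CPM in that order. Mfap4, a microfibril protein, was at 1320, 447 and 370 CPM. The Wnt inhibitor Sfrp1 was at 2416, 1293 and 712 CPM, with the corpus between the ends, whereas the BMP antagonist Chrdl1, at 545, 177 and 153 CPM, differed mainly between the caput and the rest. Aspn, the proteoglycan asporin, was at 536, 71.1 and 318 CPM and so was lowest in the corpus. Hoxc8 was at 122, 70.1 and 14.5 CPM. Angptl7 was at 219 CPM in caput members, but 45 UMIs in 6 of 32 cells gave this value and 51.1% of them came from 1 cell. Most UMIs of the globins in this group also came from 1 cell (58.1% for Hbb-bs and 74.6% for Hbb-bt).

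The corpus-high genes were few. C3, the central complement component, was at 195 CPM in caput, 637 in corpus and 522 in cauda members, against 11.6, 54.0 and 193 CPM in the other barcodes. Efemp1, the elastic fibre protein fibulin-3, was at 92.5, 360 and 223 CPM. Trf, the iron carrier transferrin, was at 77.9, 305 and 194 CPM, although the other barcodes of the cauda had more (257 CPM) than the cauda members. The transcription factors Hoxc9 (29.2, 108 and 28.7 CPM) and Osr1 (19.5, 157 and 74.4 CPM) peaked in the corpus as well, and for Osr1 the corpus interval lay above that of the cauda.

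Examples of the cauda-high genes, a group that also held ribosomal pseudogenes such as Rps2-ps10, were picked in the same way. Ly6a, the surface antigen Sca-1, was at 404, 1097 and 2004 CPM in caput, corpus and cauda members, and Ly6c1, a related antigen, at 102, 423 and 969 CPM. Cxcl14, a chemokine, was at 34.1, 49.6 and 329 CPM. Ctla2a, a cysteine protease inhibitor, was at 43.8, 123 and 450 CPM. Igfbp5, an IGF-binding protein, was at 97.4, 83.7 and 418 CPM, and Fst at 4.87, 30.2 and 202 CPM, with 1 UMI behind the caput value. The other barcodes of the P42 cauda were also high for several of these genes: Serpine2, a protease inhibitor, was at 447 CPM in cauda members and 434 CPM in the other barcodes, and Id1, a BMP target, at 182 and 161 CPM. Fosb, an immediate early gene that tissue digestion can raise, was at 127, 373 and 594 CPM in members and 141, 159 and 361 CPM elsewhere, and the part of handling in it was not tested.

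**Figure D3:**
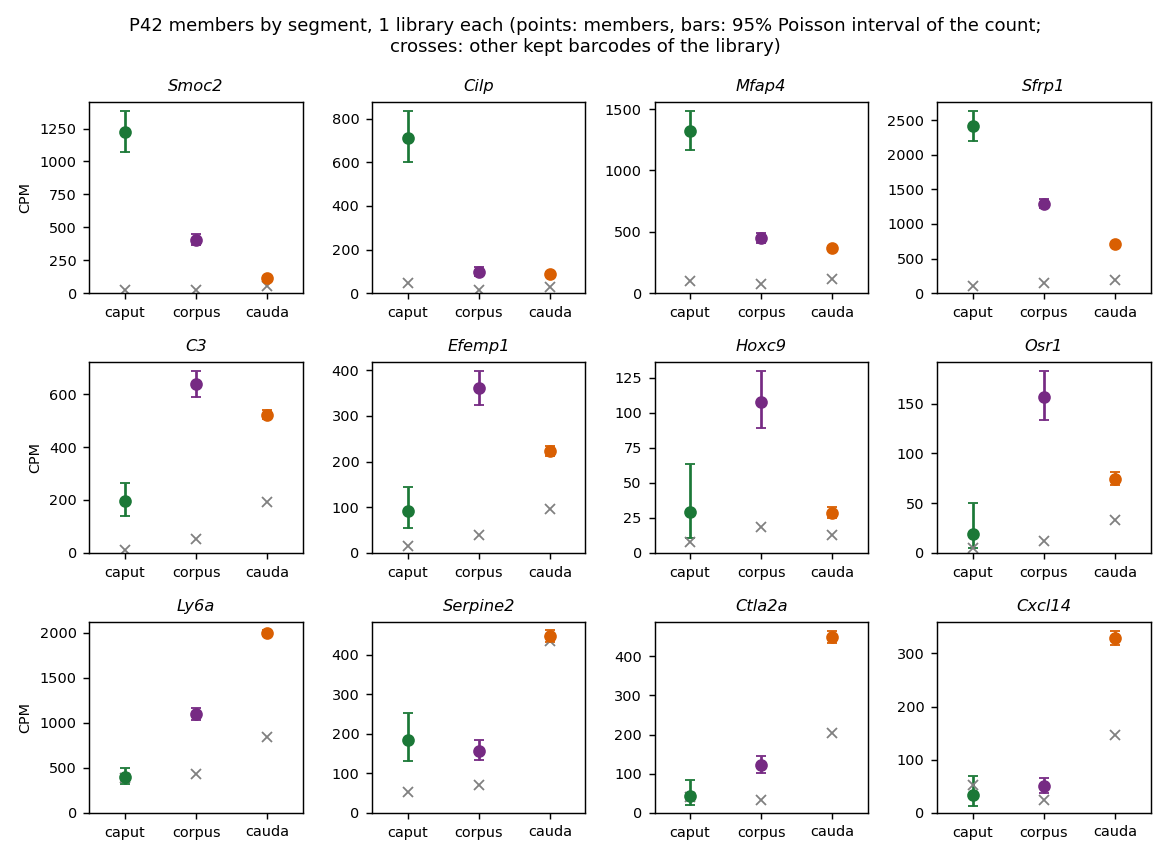
Level of 12 genes in P42 members of each segment in CPM (linear axes from 0), with 95% Poisson intervals of the count, and in the other kept barcodes of the same library (crosses). The upper row holds caput-high, the middle row corpus-high and the lower row cauda-high genes. Serpine2 reaches the same level in members (447 CPM) and other barcodes (434 CPM) of the cauda.

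The same genes were read again in stricter sets of the same members, which describes the sets and is no independent support, since the genes were chosen for their peak in these barcodes. With a collagen share of 5% or more, 65 of 67 caput, 10 of 11 corpus and 49 of 49 cauda genes kept their highest segment. With members holding 2 or more macrophage genes left out, 66, 11 and 49 did, and with members that had any smooth muscle gene left out, 62, 11 and 49 did. With members holding 2 or more markers of another class left out, 67, 10 and 48 did.

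The P56 pools gave a test of these genes in libraries that had played no part in choosing them. They held too few members, so the barcodes that met the stromal and smooth muscle limits at any collagen share, called the wider fibroblast set here, were summed per library. It held 5043 barcodes, with 339, 723 and 3062 in the P42 caput, corpus and cauda, 77, 152 and 262 in P56 pool 1, and 111, 103 and 214 in P56 pool 2. It took in 66.7% of the kept barcodes of the P42 cauda and between 1.58% and 15.8% of those of the other libraries. The set is fibroblast by this rule only: barcodes with at least 2 markers of another class made up 209 of 339, 356 of 723 and 2107 of 3062 in the P42 segments, 41 of 77, 57 of 152 and 145 of 262 in P56 pool 1, and 91 of 111, 55 of 103 and 160 of 214 in P56 pool 2. Across the 6 P56 libraries 6911 genes were tested for a segment difference with edgeR's quasi-likelihood test, with the pool as a block, and a gene was called where the adjusted p (Benjamini-Hochberg) was under 0.05 and the segments spanned a log2 range of at least 1. Lum, a rule gene, was left out.

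Of the caput-high genes of P42, 61 were tested at P56, and 28 (45.9%) were called with the caput highest, against 7.84% of all genes tested. Of the corpus-high genes 5 of 10 were called with the corpus highest, against 5.14%. Of the cauda-high genes 15 of 49 (30.6%) were called with the cauda highest, against 6.82%. The P42 genes had been chosen at 100 CPM or more in members, and the shares over all genes were not matched for level. Far fewer also differed from the other barcodes of the same libraries with the same segment highest (edgeR adjusted p under 0.05, with no limit on the size of the difference). In the caput group these were 10 of the 28 (Itgbl1, Smoc2, Fxyd6, Mfap4, Sfrp1, Cbx5 and 4 globins), while 5 passed with another segment highest and 13 did not pass. Over all genes they were 26 of the 542 called with the caput highest, or 0.376% of all genes tested. In the corpus group they were 3 of 5 (Efemp1, Trf and C3), and over all genes 44 of the 355 called (0.637% of all tested). In the cauda group Ctla2a alone of the 15 did so, while 8 passed with another segment highest and 6 did not pass. Over all genes 26 of the 471 called with the cauda highest did so (0.376% of all tested), a share close to that of the cauda group. Most of these segment differences, those of the cauda group above all, were thus not shown to be larger in the wider set than outside it. Genes were also called with another segment highest, 1 of the caput group (Ncam1), 3 of the corpus group (Cxcl13, Cxcl1 and Cyp1b1) and 11 of the cauda group, among them Fst, Ly6c1 and Igfbp3. Ly6c1 was at 56.3, 533 and 370 CPM in the caput, corpus and cauda of P56 pool 1 and at 128, 376 and 282 CPM in those of pool 2, so the corpus led in both (log2 range 2.30, edgeR quasi-likelihood adjusted p = 0.00149). Of the 28 called caput genes 4 were globins, which are transcripts of red blood cells. Of the 15 called cauda genes 4 (Dnajb1, Fosb, Klf4 and Hspa1b) were on the list of immediate early and dissociation-response genes. The calls of that list over all 9 libraries fell from 17 to 3 without P56 pool 1. Of its 28 genes, however, 24 still had the cauda highest there, and 17 had an unadjusted p under 0.05 by edgeR's test.

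Several of the caput genes were steep in both P56 pools. Cilp was at 273, 25.8 and 15.4 CPM in the caput, corpus and cauda of pool 1 and at 219, 9.13 and 5.08 CPM in those of pool 2 (log2 range 4.42, edgeR quasi-likelihood adjusted p = 3.41e-06), and the other barcodes stood at or below 7.23 CPM. Hoxc8 was at 173, 45.6 and 5.65 CPM and at 103, 24.4 and 0.508 CPM (log2 range 5.26, edgeR adjusted p = 1.78e-05). Smoc2 was at 200, 71.4 and 33.9 CPM and at 127, 67.0 and 9.14 CPM (log2 range 2.75, edgeR adjusted p = 0.000752), and Sfrp1 at 1210, 468 and 267 CPM and at 840, 335 and 174 CPM (log2 range 1.99, edgeR adjusted p = 0.000121). In each of these 4 genes the caput exceeded both other segments in both pools. Tested against the segment difference of the other barcodes, Smoc2 (edgeR adjusted p = 8.06e-26) and Sfrp1 (4.63e-102) passed. Relative to the other barcodes the cauda was lowest for both, but in pool 2 the corpus stood higher than the caput, since the other barcodes of caput and corpus held 5.36 and 1.85 CPM of Smoc2 and 39.5 and 13.2 CPM of Sfrp1. Cilp (0.130) and Hoxc8 (0.867) did not pass edgeR's test against the other barcodes in these 6 libraries, so for these the segment difference at P56 was not shown to differ from that of the other barcodes. Aspn had the corpus as its lowest segment again, with 60.5, 6.08 and 43.2 CPM and 50.7, 6.09 and 38.6 CPM.

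Among the corpus genes called at P56, C3 was at 22.9, 368 and 118 CPM in the 3 segments of pool 1 and at 26.5, 148 and 74.2 CPM in those of pool 2 (log2 range 3.24, edgeR adjusted p = 0.000101). Hoxc9 was at 16.7, 50.1 and 8.74 CPM and at 11.5, 62.4 and 3.56 CPM (log2 range 3.02, edgeR adjusted p = 0.00132). Against the other barcodes C3 passed (edgeR adjusted p = 1.64e-27) and Hoxc9 did not (0.109). Efemp1, Trf and Osr1 were the others. Among the cauda genes Ctla2a was at 50.04, 48.6 and 480 CPM and at 84.1, 105 and 345 CPM (log2 range 2.87, edgeR adjusted p = 0.000208), with at most 20.9 CPM in the other barcodes and a difference from them that passed (edgeR adjusted p = 3.85e-14). Serpine2 was at 104, 105 and 675 CPM and at 86.4, 107 and 979 CPM (log2 range 3.35, edgeR adjusted p = 5.54e-06), but the other barcodes of the P56 cauda held 813 and 949 CPM. Id1 likewise stood at 247 and 275 CPM in the cauda of the wider set and at 259 and 282 CPM in the other barcodes. In the cauda Serpine2 and Id1 thus stood at like levels inside and outside the wider set.

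Over all 9 libraries, with the pool as a block, 1270 of 11531 genes (11.0%) were called between segments in the wider set, 576 (5.00%) with the caput highest, 310 (2.69%) with the corpus and 384 (3.33%) with the cauda. When the segment difference was tested against that of the other barcodes of the same libraries, 50 caput, 35 corpus and 33 cauda genes were also called in the same direction. Same direction means that the excess over the other barcodes was larger in the highest than in the lowest segment. The remaining segment could still have the largest excess. Those with the same highest segment in every pool and a level above the other barcodes numbered 31, 17 and 4.

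The genes with the widest range among these were named. Passing against the other barcodes over the 9 libraries was a condition for being named, so it is no further support. Cilp met it (edgeR adjusted p = 5.44e-18), although it had not passed in the P56 libraries alone. The 9 libraries include those of P42, in which Cilp had first been picked. In the caput they were Angptl7, Sln, Cilp, Itga8, Crispld1, Tnmd, Fxyd6 and P2ry14. Several of these had low levels even there. In the caput of P42, P56 pool 1 and pool 2, Angptl7 was at 22.9, 6.25 and 3.46 CPM, Sln at 15.8, 39.6 and 3.46 CPM and Itga8 at 12.8, 6.25 and 10.4 CPM. Their ranges are thus uncertain, and few cells gave the Angptl7 of P42 members (above). Crispld1, a secreted CAP-domain protein, was at 186, 116 and 35.9 CPM in the P42 caput, corpus and cauda, 167, 60.8 and 14.4 CPM in P56 pool 1 and 79.5, 45.7 and 3.56 CPM in pool 2 (log2 range 2.97, edgeR adjusted p = 0.000214). In the corpus they were Slpi, Iyd, Ptx3, Efemp1, Hhip, Trf, Hoxc9 and Hp. Hhip, which binds and restrains hedgehog ligands, was at 20.7, 104 and 35.1 CPM, 6.25, 51.7 and 12.3 CPM, and 6.92, 50.2 and 2.54 CPM in the same order (log2 range 2.75, edgeR adjusted p = 0.000810). Slpi, an inhibitor of leukocyte elastase, was at 3.52, 31.6 and 6.601 CPM, 0, 95.7 and 0.514 CPM, and 1.15, 21.3 and 1.52 CPM. In the cauda they were Smoc1, Ctla2a, Spon1 and Inmt. Relative to the other barcodes, the cauda was highest for Ctla2a alone, and the corpus was highest for Smoc1, Spon1 and Inmt. Smoc1, the close relative of the caput gene Smoc2, was at 5.72, 30.5 and 64.0 CPM, 6.25, 4.56 and 17.5 CPM, and 2.31, 10.7 and 16.3 CPM (log2 range 3.17, edgeR adjusted p = 0.00126), with the cauda highest in each pool.

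Of 19 Hox genes tested in the wider set, 14 were called between segments against 11.0% of all genes. With the caput highest there were 11 (Hoxa5, Hoxa7, Hoxb1, Hoxb6, Hoxb7, Hoxb8, Hoxb9, Hoxc4, Hoxc6, Hoxc8 and Hoxd4), with the corpus highest 2 (Hoxc9 and Hoxc10) and with the cauda highest 1 (Hoxa10). With TMM scaling factors set to 1 the counts were 11, 2 and 0, with DESeq2 11, 3 and 1, and without the P42 pool 9, 2 and 1 of 16. Without P56 pool 1 they were 6, 2 and 1, and with mixed barcodes left out 7, 2 and 1 of 17. These Hox calls compare segments within the wider set and do not set it against the other barcodes. Hoxc9 was named above as passing against the other barcodes over the 9 libraries. In the P56 libraries alone neither Hoxc8 nor Hoxc9 passed that test. Of 19 chemokine and cytokine genes 12 were called, 9 with the cauda highest. Without P56 pool 1, 8 were called, 5 of them with the cauda highest. Without the P42 pool 10 of 16 were called, 5 of them with the cauda highest. Called or not, the cauda was highest for 13 of 19 with all libraries, 10 of 19 without P56 pool 1 and 8 of 16 without the P42 pool. Of 28 immediate early and dissociation-response genes 17 were called, 14 with the cauda highest, and without P56 pool 1 only 3 were called, 1 with the cauda highest. Called or not, 24 of the 28 had the cauda highest both with all libraries and without P56 pool 1. In the latter 17 had an unadjusted p under 0.05 by edgeR's test. Without the P42 pool 22 of 27 were called, 15 with the cauda highest. Of 8 fibrillar collagens 3 were called, all with the cauda highest by the fitted mean (Col1a1, Col3a1 and Col5a2). In both P56 pools, however, Col1a1 was higher in the corpus than in the cauda (1521 against 1463 CPM and 769 against 611 CPM), and Col5a2 was so in pool 2 (73.1 against 54.9 CPM). With TMM factors set to 1, only 1 fibrillar collagen was called. Without P56 pool 1 none was called by edgeR's quasi-likelihood test, with 4 at an unadjusted p under 0.05. Of 10 mitochondrial transcripts 6 were called with the corpus highest, and with DESeq2 9 were called, 8 of them with the corpus highest. Without P56 pool 1 edgeR called none, with 4 at an unadjusted p under 0.05. Called or not, 9 of the 10 had the corpus highest with all libraries and 10 without P56 pool 1. Without P56 pool 2 edgeR called 1, and 7 had the corpus highest.

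The wider set also allowed a look at collagen by age, with the collagen share left out of the choice of barcodes. The median collagen share of its barcodes was 0.835% in the P42 caput, 1.54% in the P42 corpus and 2.53% in the P42 cauda. In P56 pool 1 it was 0.209%, 0.402% and 0.459%, and in pool 2 0.117%, 0.228% and 0.219%. Each P42 median thus exceeded every P56 median. Barcodes of all kinds carried more collagen in the P42 cauda (above), and the set took in far more of its barcodes there, so fewer or more mixed barcodes and less collagen RNA per cell cannot be told apart in these medians.

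**Figure D4:**
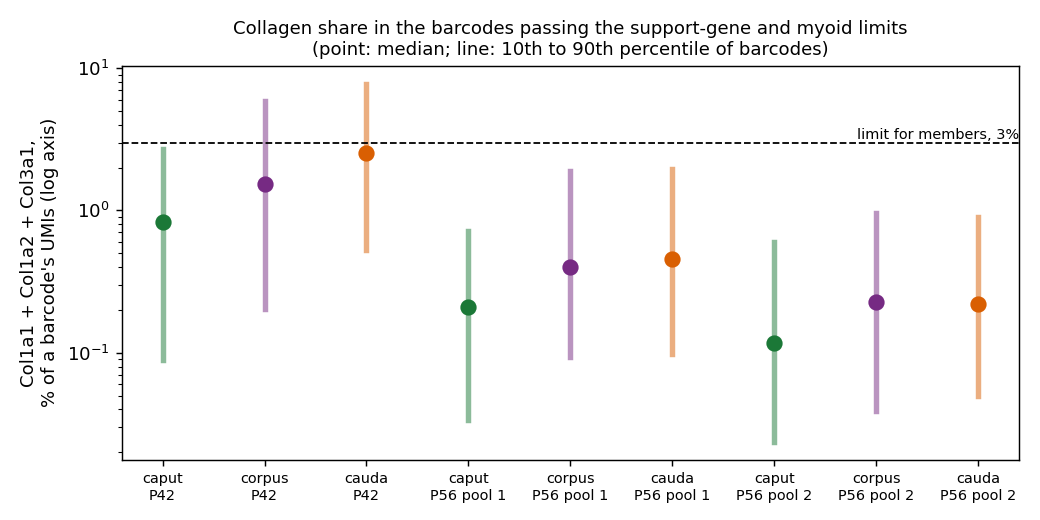
Share of UMIs from Col1a1, Col1a2 and Col3a1 in the barcodes of the wider fibroblast set of each library, in percent on a log axis. Points are medians, lines run from the 10th to the 90th percentile of barcodes, and the dashed line marks the 3% limit for members. The P42 medians, 0.835 to 2.53%, lie above the P56 medians, 0.117 to 0.459%.

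Fibrillar collagen transcripts were lower at P56 in the wider set. Col1a1 stood at 3227, 6583 and 11606 CPM in the P42 caput, corpus and cauda, at 809, 1521 and 1463 CPM in P56 pool 1 and at 451, 769 and 611 CPM in P56 pool 2, so no P56 library reached the lowest P42 value. The log2 change from P42 to P56 was -2.11, -2.30 and -2.93 in caput, corpus and cauda (SE 0.47 in each), with edgeR quasi-likelihood adjusted p-values of 0.0727, 0.0516 and 0.000501, so in this fit it passed in the cauda alone. With DESeq2 it passed in all 3 segments (adjusted p = 0.0307, 0.0164 and 6.2e-05). Col3a1 fell by 2.17, 2.07 and 2.15 on the log2 scale (SE 0.35 in each; edgeR adjusted p = 0.0327, 0.0213 and 0.000537) and passed in all 3 segments. With mixed barcodes left out Col3a1 changed by -3.15, -2.05 and -2.47, and the caput and corpus calls were lost. With 4 or more stromal genes required it changed by -1.77, -1.89 and -1.95, and the caput call was lost. The caput and corpus calls thus depended on the choice of barcodes, while the change stayed negative in each segment. Col1a2 changed by -1.58, -1.90 and -2.22, with edgeR adjusted p-values of 0.148, 0.0703 and 0.00161. In this fit the single P42 pool was taken to vary as the 2 P56 pools did. It held no pool block, since age and pool coincide, and so took the 3 libraries of a pool as independent although they come from the same mice, which can make these p-values too small.

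Decorin, which sits on the same fibrils, did not pass in any segment. Dcn stood at 6921, 9946 and 11959 CPM in the P42 segments, at 6536, 7598 and 7512 CPM in P56 pool 1 and at 4445, 6757 and 4813 CPM in pool 2, with log2 changes of -0.09, -0.23 and -0.41 (SE 0.36, 0.35 and 0.35) and edgeR adjusted p-values of 0.970, 0.870 and 0.429. A p above the limit does not show that its level was the same, and with TMM factors set to 1 its change in the cauda was -0.96 with an adjusted p of 0.0333.

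Over all genes, 12791 in number, 23 were called lower at P56 (0.180%) and 12 higher (0.0938%) in the caput. The corpus had 20 lower (0.156%) and 17 higher (0.133%), and the cauda 1558 lower (12.2%) and 1147 higher (8.97%). The split moved with scaling: with TMM factors set to 1, 3105 were lower and 495 higher in the cauda. The median of all genes lay at -0.03, -0.04 and -0.11 in the 3 segments with TMM and at -0.25, -0.28 and -0.64 without it. Of 8 fibrillar collagens 1 was called lower in the caput, 2 were in the corpus and 7 were in the cauda, while all 8 had negative changes in all 3 segments, which 25.8% of all genes had. The list medians were -1.76, -1.99 and -2.30. With mixed barcodes left out the calls in caput, corpus and cauda were 0, 0 and 6 of 7 by edgeR (6 in each at an unadjusted p under 0.05), after thinning 4, 4 and 5 of 6, and with DESeq2 2, 5 and 6 of 8. Of 21 genes for collagen folding, trimming and cross-linking 18 were called lower in the cauda by edgeR and none in the caput or corpus, where 12 and 14 had an unadjusted p under 0.05 and DESeq2 also called 0. Serpinh1 changed by -1.02, -1.08 and -1.61 on the log2 scale and Lox by -1.55, -1.58 and -2.03, both passing in the cauda alone (edgeR adjusted p = 0.00723 and 0.00376). Of 10 small leucine-rich proteoglycans, Lum of the rule left out, edgeR called 4 lower in the cauda and 2 in the corpus.

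Collagen transcripts outside the wider set stood lower at P56 as well. The other barcodes of the P42 caput, corpus and cauda held 98.6, 312 and 3023 CPM of Col1a1, those of P56 pool 1 13.9, 33.5 and 65.9 CPM and those of pool 2 12.9, 22.3 and 38.3 CPM. Genes were named across segments where at least 2 segments were called with the same sign in all 3, and where the change also differed from that of the other barcodes, in either direction, in at least 1 segment. Of 10 such genes lower at P56, Col5a1, Col3a1, Col6a3, C1qtnf6, Dusp1, Rhob, Egr1 and Aspn had the largest smallest change, and Fam221b alone was named as higher. In Rhob and Egr1 the wider set changed by more than the other barcodes in the segment where this was called, the corpus, and in the other 7 named genes it was never called in that direction. These calls against the other barcodes rest on the adjusted p alone, and the differences were -0.99 for Rhob and -1.08 for Egr1 on the log2 scale (edgeR adjusted p = 0.0109 and 5.23e-06). Col6a3, a chain of microfibrillar collagen, changed by -2.04, -1.35 and -2.42 on the log2 scale (edgeR adjusted p = 0.0488, 0.145 and 0.000179). Egr1, an immediate early gene, changed by -1.70, -0.82 and -1.27 (edgeR adjusted p = 0.0389, 0.304 and 0.00623). Without mixed barcodes neither passed in the caput (edgeR adjusted p = 0.0937 and 0.0676).

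**Figure D5:**
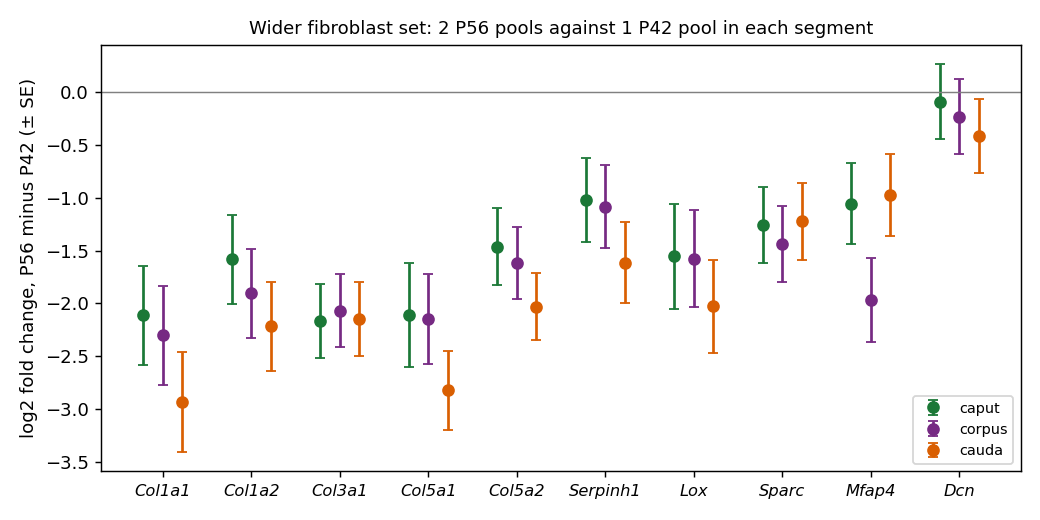
Log2 fold change from P42 to P56 of 10 matrix genes in the wider fibroblast set for each segment, with the standard error of the fit (bars; 2 P56 pools against 1 P42 pool). The 5 collagens lie between -1.46 and -2.93, while Dcn lies between -0.09 and -0.41.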

How the data were processed

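The UMI counts were deposited as 1 matrix of whole numbers. According to the study's methods, cells of digested tissue were captured on GEXSCOPE microwell chips, and per the labels the authors used UMI-tools and STAR 2.7.3a with the GRCm38.p6 genome to make the counts, which were not normalized. All 9 libraries had a column prefix of their own, and 0 columns of per-sample values were left unused. Barcode sequences were compared between libraries: 116 of 41926 occurred in more than 1 library, and none was shared by members of 2 libraries.

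Members and gene lists were chosen with earlier results of these data known, and the wider set was added after its need was seen. Doublets were neither called nor removed. UMIs were summed per library over members, or over the wider set, and over the remaining kept barcodes, since cells are not replicates. Tests across genes used edgeR 4.0.16 (R 4.3.3; glmQLFit and glmQLFTest, TMM, filterByExpr), with an adjusted p under 0.05 and an absolute log2 change of at least 1. Tests against the other barcodes were called on the adjusted p alone. DESeq2 1.42.0 was an alternative. Genes were named by fixed rules: the 20 largest lowest log2 ratios over libraries among genes at 20 CPM or more in members, up to 8 called genes per highest segment that were also called against the other barcodes with the same highest segment in every pool, and up to 8 per direction of age called in 2 or more segments with the same sign in all 3 and also called against the other barcodes in at least 1, ranked by their smallest change. Genes named from the gene lists, and those shown from the P42 fold rule, were picked as examples after their values were seen.

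The 3 segments of a pool came from the same 5 mice, so pool was used as a block in the segment fits. The age fits held no block, since age and pool coincide. Deviations from segment means correlated at 0.0454 to 0.533 between libraries of the same pool (9 pairs) and at -0.437 to 0.236 between pools (18 pairs). These ranges mix age with pool, since pairs of P42 with P56 libraries ran from -0.437 to -0.05. Within P56, pairs of the same pool ran from 0.0454 to 0.327 and pairs of different pools from -0.0165 to 0.236. These overlap, so the correlations cannot show that P56 libraries of the same replicate number share mice. The fits across genes were checked on simulated counts. Pools are the replicates: 3 in the segment fits, 2 in those of P56 alone, and 2 against 1 in the age fits, so no p-value measures spread between P42 pools. Tests against the other barcodes compare sums within the same libraries, and the spread behind all p-values may be technical. Python 3.11.15, numpy 2.4.6, pandas 2.3.3, scipy 1.17.1 and matplotlib 3.10.9 were used.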

Additional observations from a re-analysis of the deposited data

Results flagged for a closer look

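The change of the 3 rule collagens from P42 to P56 was also tested as a difference between the wider fibroblast set and the other barcodes of the same libraries, with edgeR's quasi-likelihood test. A positive value means that the collagen fell by less in the wider set than outside it. In the cauda the difference was 1.91 for Col1a1 (adjusted p = 1.26e-22), 1.82 for Col1a2 (adjusted p = 1.68e-20) and 1.74 for Col3a1 (adjusted p = 2.36e-19) on the log2 scale, while the wider set itself changed by -2.93, -2.22 and -2.15. In the corpus it was 0.63 for Col1a2 (edgeR adjusted p = 0.0453) and 0.73 for Col3a1 (edgeR adjusted p = 0.0115), with changes of -1.90 and -2.07 in the wider set. These p-values do not measure the spread between P42 pools, since P42 had 1 library for each segment, and the differences describe 1 pool against 2. The 3 genes chose the members but not the wider set. The other barcodes of the P42 cauda held 3023 CPM of Col1a1.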

How the results depend on the processing

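The share difference between cauda and caput stayed positive under every setting tried. It ran from 0.0722 to 14.2 points with 1 pool left out and from 3.94 to 12.97 points under the other settings. The p of the permutation test over the segments stayed above 0.05 in each, but in several settings it could not fall under 0.05. The smallest possible p was 0.167 with 1 pool left out and 0.111 with a collagen share of 5% or more. It was 0.0556 with no smooth muscle gene allowed and with mixed members left out. Calls between segments in the wider set (1270) numbered 2038 with no filter on low counts, 683 with mixed barcodes left out and 412 after thinning to 1000 UMIs, and 594 to 1368 with 1 pool left out, the lowest being without P56 pool 1. Calls against the other barcodes (1062) numbered 306 after thinning and 531 to 960 with 1 pool left out, the lowest being without P42. With no replicate block the calls between segments were 666, and 623 against the other barcodes. With TMM factors set to 1 the calls between segments were 655 caput, 270 corpus and 252 cauda. Age calls in the caput (35) numbered 296 without the filter, 16 without mitochondrial and globin genes, 2 with 4 or more stromal genes required, 1 without mixed barcodes and 53 with DESeq2. In the corpus (37) they numbered 339, 22, 92, 7 and 80 in that order, and 13 after thinning. In the cauda (2705) they numbered 1047 without mixed barcodes, 789 after thinning and 1057 with DESeq2. With TMM factors set to 1 the calls were 3 higher and 32 lower in the caput and 3 higher and 26 lower in the corpus. The cause of these moves was not tested, apart from the fewer barcodes or UMIs that leaving out and thinning give. Of the named genes' values, 159 between segments and 218 between ages stayed on their side of the threshold, 11 and 27 lost their call, 23 between ages gained one, and none reversed. Values for which DESeq2 gave no adjusted p were not counted.

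The planned fits on members could not be made: with the block, 4 libraries leave 0 residual degrees of freedom. Without it, 155 of 8152 genes were called with 1 residual degree of freedom. The planned permutation tests of mitochondrial share and UMIs per member could not be run over 9 libraries, since the cauda of P56 pool 2 held no member, and the 2 complete pools cannot go below p = 0.167. Leaving out a P56 pool in the age fit leaves 1 library per mean and no test. Fewer than 10 members in 5 libraries limit what can be said of members at P56.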
